A study of Caenorhabditis elegans with 2 samples.

Results

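The regions described here were 1258 autosomal stretches recovered with tagged ZTF-11 whose summits lay near the start of a protein-coding gene. They were selected on 2 measures in the list made from the pooled reads of both replicates. A region had to be among the 5000 of highest signal in that list of 30000, outside chromosome X, and have its summit within 500 bp of any annotated protein-coding transcript start. Of the 5000, 4154 lay on autosomes, and the other 846 were counted as X. Of the 4154, 1258 met the distance rule, or 30.3%. Over all 24836 autosomal regions of the pooled list, 6662 lay within 500 bp of a start, or 26.8%. Signal and distance chose the members, so both are given as descriptions. The samples were 2 biological replicates of whole L1 larvae, pooled male and female, of the strain OP236, genotype unc-119(ed3) III; wgIs236, in which a stable transgene supplied ZTF-11 tagged C-terminally with GFP-FLAG. Chromatin was sonicated and analysed by ChIP-seq (chromatin immunoprecipitation and sequencing). The replicates formed 1 group with no second condition, so no comparison between conditions was possible and nothing below carries a p-value. Whole larvae were used, so a region bound in a few cells and one bound weakly in many could not be told apart.

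ZTF-11 is the worm member of the Myt1 family, zinc-finger transcription factors known in mammals for repressing non-neuronal genes while neurons form. In Caenorhabditis elegans most promoters lie in short intergenic stretches, and the annotated start of a gene is often a trans-splice site somewhat downstream of where transcription begins. A broadly active gene in this animal usually has open chromatin just upstream of that point, and many transcription factors are recovered at such open promoters in whole-animal experiments. Neighbouring genes can also share 1 intergenic stretch and be read in opposite directions.

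The windows below show what the highest regions near starts looked like at the base level. They are the 101 bases around the summit of the 3 members of highest signal with a match in both replicates on each of chromosomes II, III, IV and V, on the top strand of ce11 (WBcel235), with every CG pair in capitals. CG pairs are marked because their number differed between the highest members and the rest, as given further on. The windows were read from the RefSeq genome sequence at chrIII:1619093-1619193 (gene on the minus strand), chrIII:3867567-3867667 (plus), chrIV:4750033-4750133 (plus), chrIV:1659226-1659326 (plus), chrV:12291726-12291826 (plus), chrIV:4049636-4049736 (minus), chrII:216694-216794 (minus), chrIII:1859636-1859736 (plus), chrV:10897391-10897491 (minus), chrV:14685722-14685822 (minus), chrII:255297-255397 (minus) and chrII:10868885-10868985 (minus).
Y22D7AL.10: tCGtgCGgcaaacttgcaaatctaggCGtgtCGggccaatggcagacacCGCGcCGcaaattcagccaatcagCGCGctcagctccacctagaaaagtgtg
rpl-3: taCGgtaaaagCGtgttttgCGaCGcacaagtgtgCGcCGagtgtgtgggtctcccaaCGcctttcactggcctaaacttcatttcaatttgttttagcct
Y17G9B.5: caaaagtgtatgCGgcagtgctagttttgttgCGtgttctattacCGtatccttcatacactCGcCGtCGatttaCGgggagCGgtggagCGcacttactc
rps-28: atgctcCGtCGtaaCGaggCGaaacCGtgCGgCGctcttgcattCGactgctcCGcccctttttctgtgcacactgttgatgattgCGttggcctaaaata
srh-16: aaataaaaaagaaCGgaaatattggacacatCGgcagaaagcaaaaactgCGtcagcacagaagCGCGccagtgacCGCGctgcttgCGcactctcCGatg
pcn-1: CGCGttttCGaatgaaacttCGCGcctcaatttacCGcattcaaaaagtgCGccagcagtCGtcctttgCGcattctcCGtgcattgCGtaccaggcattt
F48A11.4: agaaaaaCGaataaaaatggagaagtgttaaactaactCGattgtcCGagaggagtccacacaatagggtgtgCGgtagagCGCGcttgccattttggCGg
ddp-1: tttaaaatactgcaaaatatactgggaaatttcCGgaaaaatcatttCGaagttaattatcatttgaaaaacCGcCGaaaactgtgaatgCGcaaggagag
sec-61.G: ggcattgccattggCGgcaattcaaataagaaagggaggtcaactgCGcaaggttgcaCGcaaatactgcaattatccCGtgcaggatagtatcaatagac
C47E8.4: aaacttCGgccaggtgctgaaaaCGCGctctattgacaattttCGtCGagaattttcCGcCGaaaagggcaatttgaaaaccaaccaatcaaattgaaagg
scc-2: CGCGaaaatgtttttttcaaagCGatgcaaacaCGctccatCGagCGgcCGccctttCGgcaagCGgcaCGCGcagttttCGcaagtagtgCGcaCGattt
gmps-1: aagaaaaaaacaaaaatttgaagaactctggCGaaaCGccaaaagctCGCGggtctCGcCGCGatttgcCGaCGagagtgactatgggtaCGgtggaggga
These windows held between 4 CG pairs at sec-61.G and 14 at scc-2, and their GC content ran from 33.7% at ddp-1, which held 5 CG pairs, to 57.4% at Y22D7AL.10. A set of 3 of the lowest-ranked members is shown for contrast, at chrIV:4811890-4811990, chrII:13792390-13792490 and chrIII:5879414-5879514.
srw-95: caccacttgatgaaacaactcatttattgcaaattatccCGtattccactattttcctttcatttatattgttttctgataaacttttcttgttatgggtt
ZK131.11: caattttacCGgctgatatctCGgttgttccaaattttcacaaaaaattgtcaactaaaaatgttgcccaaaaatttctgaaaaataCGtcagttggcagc
hpo-10: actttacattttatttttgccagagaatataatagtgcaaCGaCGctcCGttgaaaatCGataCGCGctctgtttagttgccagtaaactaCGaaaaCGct
At srw-95 the window held 1 CG pair, at ZK131.11 it held 3 and at hpo-10 it held 8, so low rank did not always go with few CG pairs.

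All 30000 regions of the pooled list were 350 bp wide, and the deposited summit was the midpoint of the region, which limits how closely a position can be read. The 30000 regions include background by the deposit's own naming, and read depth was unknown. Each replicate had its own list of 30000 regions. The authors' signal value ranks regions within a list, and values from different lists are set side by side here without a common scale. A 38.9 kb stretch of chromosome V around npr-39 stood apart between the replicates. It held 16 of the 5000 highest pooled regions, 5 of them members, and none had a match in replicate 2. Without that stretch the members numbered 1253 and the share near starts was 30.3%, with 59.7% upstream of the start, 87.5% matched in replicate 1, 81.3% in replicate 2 and 68.95% in both.

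Regions of the highest signal lay near starts most often, and those from rank 1001 on did so little more than the list as a whole. Among autosomal regions ranked 1 to 88 by pooled signal, 48 of 68 lay near a start, or 70.6% (95% interval 58.3% to 81.02%). For ranks 89 to 500 the share was 43.3% (38.1% to 48.7%), with 153 members, and for ranks 501 to 1000 it was 31.3% (26.8% to 36.04%), with 128 members. The excess over the list was thus concentrated in the upper ranks. From there the share was close to that of the whole list, at 29.3% (26.8% to 31.9%) for ranks 1001 to 2500 and 27.2% (25.3% to 29.1%) for ranks 2501 to 5000. Those lower groups supplied 364 and 565 of the 1258 members. Just beyond the limit, ranks 5001 to 10000 gave 26.9%, and 24.0% of all autosomal bases lie within 500 bp of a start. These intervals are exact binomial intervals and cover counting of regions only. Most members were therefore drawn from ranks where regions lay near starts about as often as listed regions in general.

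**Figure D1:**
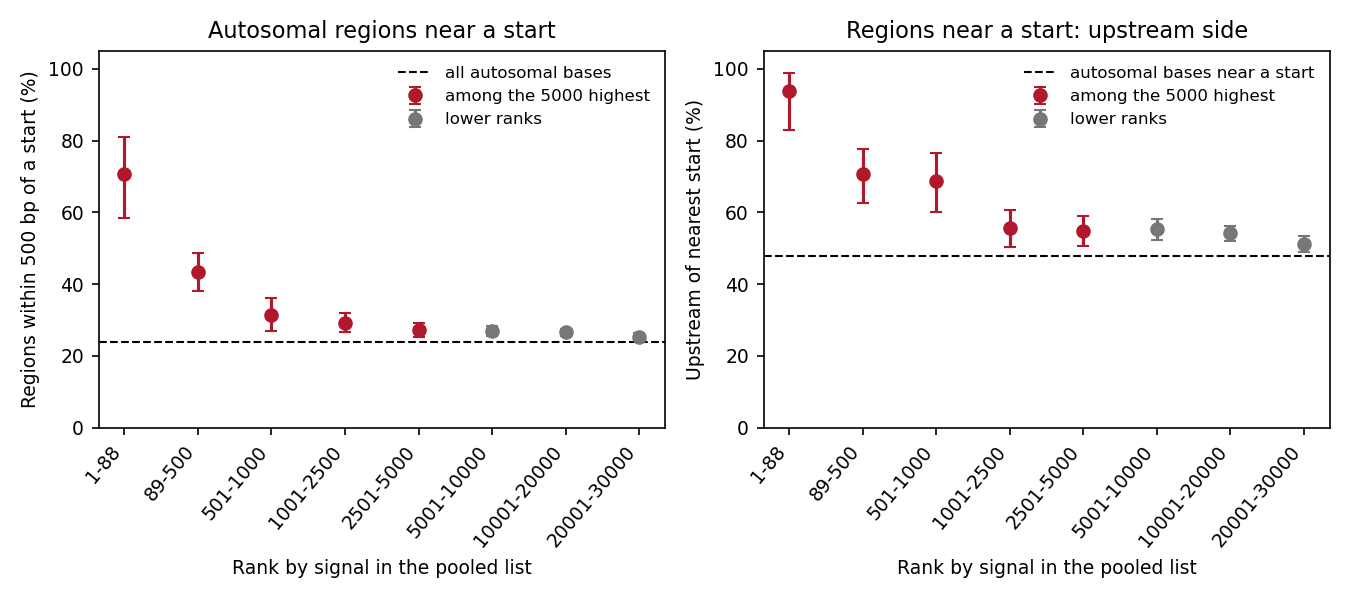
Left, the percent of autosomal regions in each rank range that had a protein-coding start within 500 bp of the summit; right, of those regions, the percent upstream of the nearest start. Points are shares with exact 95% intervals, red for ranges among the 5000 highest and grey for lower ranks, and dashed lines give the shares over bases (24.0% left, 47.8% right). The left share stands at 70.6% for ranks 1 to 88 and the right share at 93.8%, and both approach the lines with falling rank.

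The side of the start followed the same order. Of all members, 752 had the summit upstream of the nearest start, or 59.8% (57.01% to 62.5%), against 54.5% of all autosomal listed regions near starts and 47.8% of the bases within 500 bp of a start. The share was 93.8% (82.8% to 98.7%) in ranks 1 to 88, 70.6% (62.7% to 77.7%) in ranks 89 to 500 and 68.8% (59.96% to 76.7%) in ranks 501 to 1000. Below that the intervals included the 54.5% of listed regions in general. It was 55.5% (50.2% to 60.7%) in ranks 1001 to 2500 and 54.7% (50.5% to 58.9%) in ranks 2501 to 5000. Summits of the highest members also gathered at a narrower distance. The 201 members ranked to 500 had a median position of -143 bp, with the central 50% of members between -237 and -15 bp. The 1057 members ranked from 501 had a median of -45 bp and a much wider spread, with the central 50% between -247 and 185 bp.

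**Figure D2:**
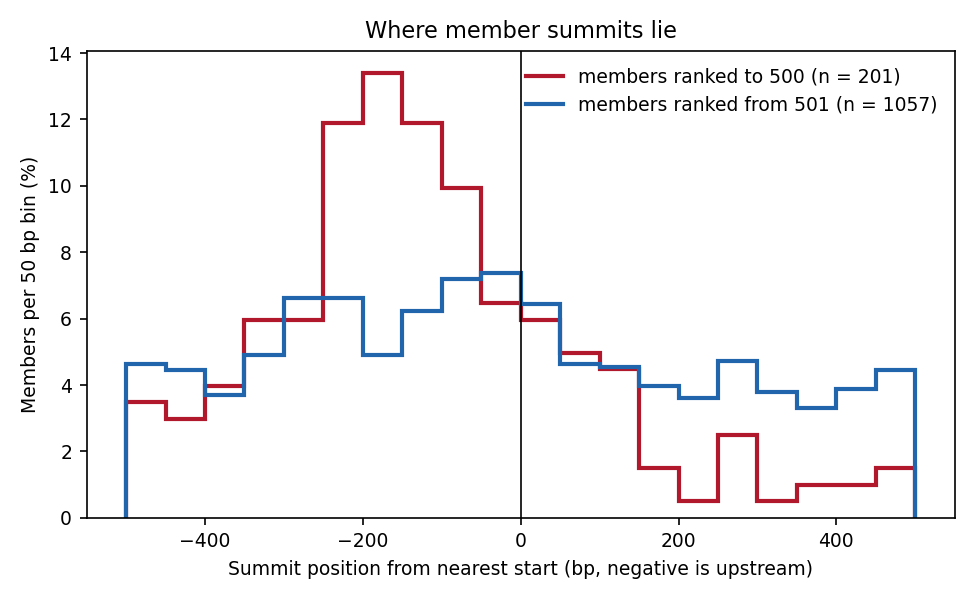
Position of the summit from the nearest start in bp (negative is upstream), as the percent of members per 50 bp bin, for the 201 members ranked to 500 (red) and the 1057 ranked from 501 (blue). The red line peaks at 13.4% in the bin from -200 to -150 bp, and the blue line stays between 3.31% and 7.38% in every bin.

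The annotation under the summits differed in the same direction. Of the 1258 members, 544 (43.2%) had summits outside protein-coding genes, 373 (29.7%) in an intron, 206 (16.4%) in a coding exon and 135 (10.7%) in a UTR exon. Summits outside genes made up 65.2% (58.2% to 71.7%) of the members ranked to 500 and 39.1% (36.1% to 42.1%) of those ranked from 501. Coding exons held 6.97% of members ranked to 500 and 18.2% of those ranked from 501. The word promoter thus describes position only for many members, since a summit within 500 bp of a start can lie inside the gene.

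Some members sat between genes read in opposite directions. Starts on both strands lay within 500 bp of 164 members, and at 123 of these, or 9.78% of all members (8.19% to 11.6%), the summit was upstream of both. Over all autosomal listed regions near starts the share was 5.12%. It reached 37.5% (23.95% to 52.7%) in ranks 1 to 88, or 18 of 48, and stood at 13.1% in ranks 89 to 500 and 6.55% in ranks 2501 to 5000. Among the highest, the region at Y17G9B.5 also had a start of rpl-20, a gene of the large ribosomal subunit, within 500 bp. That at gmps-1, which encodes GMP synthetase, also had cap-2, a subunit of the actin capping protein, and that at mig-5, a Dishevelled gene of Wnt signalling, also had cct-1, a chaperonin subunit. Over all members, 1201 genes were the nearest gene, 57 of them for 2 members each, and 1379 genes had a start within 500 bp of a member summit.

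Chromosomes differed little in the median signal of members. Members numbered 286 on chromosome I, 179 on II, 231 on III, 264 on IV and 298 on V, with median pooled signals between 24.1 and 24.5 on each. These counts are not set against the number of regions listed on each chromosome. The middle 50% of each chromosome's length held 54.6% of members (51.8% to 57.4%), against 45.6% of the 2896 autosomal regions among the 5000 highest that lay away from starts and 53.0% of all listed regions near starts. Words of 31 bases that occur more than once in the genome were present in 8.43% of members (6.95% to 10.1%), against 16.2% of these high regions away from starts and 13.3% of all listed regions near starts. A tRNA, snoRNA or snRNA gene lay within 200 bp of 16 members, or 1.27%, against 1.66% away from starts.

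Signal itself set members apart only slightly from other high regions. The median pooled signal of members was 24.3, with a range of 20.96 to 127, against 23.6 for the high regions away from starts and 16.06 for all autosomal listed regions. The regions away from starts share the limit of 5000 but not the ranks within it, since 201 of the 1258 members ranked to 500, against 220 of those 2896. The difference from the whole list follows from the rank limit. Just inside the limit, M01E5.3, ZK131.11 and hpo-10 had pooled signals of 20.97, 20.96 and 20.96. Just outside it, maph-9, bre-4 and hpo-40 had 20.96 each, so the limit cut through equal values at this precision. At the distance limit, npr-42 (497 bp upstream), trx-2 (499 bp downstream) and glod-4 (500 bp upstream) were members, while srh-2 (501 bp upstream), scl-2 (502 bp downstream) and K11D2.4 (502 bp upstream) were not.

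Members had a match in the replicate lists about as often as high regions away from starts. A match was a replicate summit within 200 bp. In replicate 1, 1101 members had one, or 87.5% (85.6% to 89.3%), against 87.5% of the high regions away from starts and 59.7% of all autosomal listed regions. In replicate 2 the share was 81.0% (78.7% to 83.1%) for members, 80.9% away from starts and 54.7% for the whole autosomal list. Near and away from starts the shares were the same to within their counting error. Matches in both replicates were found for 864 members, or 68.7% (66.04% to 71.2%), against 68.7% away from starts and 25% of the whole list. By themselves the 30000 summits of a replicate list come within 200 bp of 11.7% of autosomal bases. The pooled list rests on the same reads as both replicate lists, so these matches are not independent of the choice of members.

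A stricter count kept fewer. Among the 5000 highest of replicate 1 a match was found for 46.4% of members (43.6% to 49.2%) and 45.2% of the regions away from starts (43.4% to 47.03%). Among the 5000 highest of replicate 2 it was 43.4% of members (40.6% to 46.2%) and 36.9% of the regions away from starts (35.2% to 38.7%). Within each range of pooled rank the replicate 2 intervals overlapped, as at 43.7% of members (38.5% to 48.95%) and 39.5% of the regions away from starts (36.2% to 42.8%) in ranks 1001 to 2500. Only 176 members, or 13.99% (12.1% to 16.03%), matched a region that was among the 5000 highest of both replicates, against 8.39% of the regions away from starts and 1.82% of the whole autosomal list. By rank, this share was 81.3% (67.4% to 91.1%) near starts and 85% (62.1% to 96.8%) away from them for ranks 1 to 88. Both kinds of region were thus well supported at the top. For ranks 89 to 500 it was 53.6% (45.4% to 61.7%) near starts and 47% (39.9% to 54.2%) away. In ranks 501 to 1000 it was 24.2% (17.1% to 32.6%) near starts and 22.1% (17.4% to 27.4%) away, and in ranks 2501 to 5000 it was 1.42% near starts and 1.12% away. At each rank the intervals near and away from starts overlapped. A matched region stood within the 1000 highest of both replicates for 44 members, within the 500 highest for 24 and within the 100 highest for 7. The 7 were at Y22D7AL.10, Y17G9B.5, rpl-3, eif-3.C, his-68, ddp-1 and pcn-1.

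**Figure D3:**
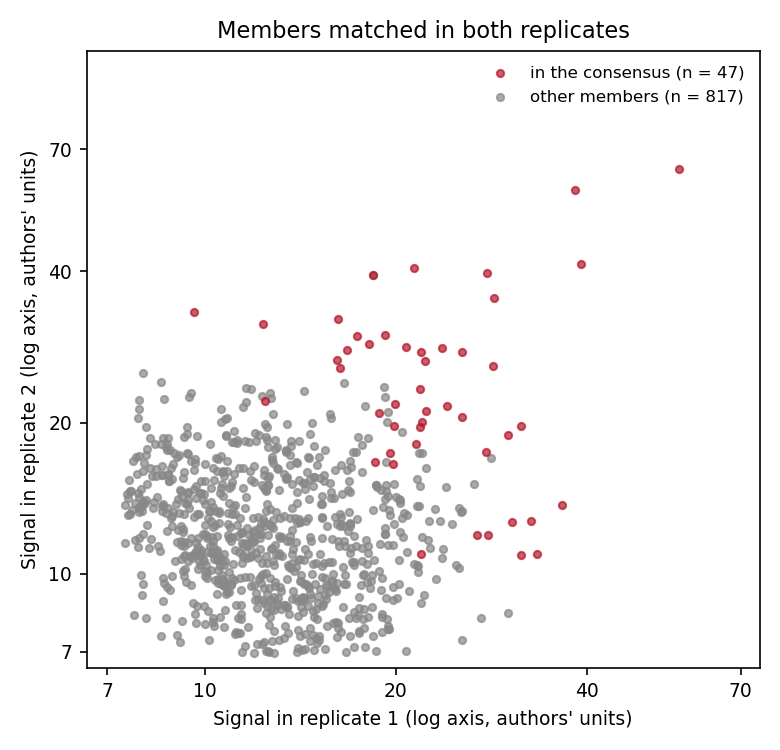
Signal in replicate 1 (horizontal) against signal in replicate 2 (vertical), both on log axes in the authors' units, for the 864 members matched in both lists. Red points are the 47 that belong to the authors' thresholded consensus of 88 peaks, grey points the other 817; only a few red points are high on both axes, among them Y22D7AL.10 at 55.96 and 64.1.

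The members of highest signal were not equally high in both replicates. The authors' thresholded consensus contained 48 members, or 3.82%, against 0.274% of the whole autosomal list, and these were the members ranked to 88. At Y22D7AL.10 the pooled signal was 127, with 55.96 in replicate 1 (rank 3) and 64.1 in replicate 2 (rank 1). At rpl-3 the pooled signal was 97.96, with 38.3 in replicate 1 (rank 12) and 58.2 in replicate 2 (rank 2). At Y17G9B.5 it was 82.4, with 39.2 in replicate 1 (rank 9) and 41.4 in replicate 2 (rank 10). These regions led both lists. Others led 1 list: gmps-1 had a signal of 33.3 in replicate 2 (rank 24) and 9.62 in replicate 1 (rank 16292), and gpap-1 had 33.4 in replicate 1 (rank 21) and 10.96 in replicate 2 (rank 8164). Likewise W04C9.4 ranked 22 in replicate 1 and 4077 in replicate 2, and F48A11.4 ranked 14 in replicate 1 and 2780 in replicate 2. Of the 201 members ranked to 500, 183 had a match in both replicates, 15 in replicate 1 alone and 3 in replicate 2 alone.

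The run of regions at npr-39, a gene of the neuropeptide receptor family, held 5 of the members, 4 of them among those 15. The stretch ran from 10053014 to 10091886 on chromosome V, from the first to the last of 16 neighbouring high pooled regions without a replicate 2 match. The next longest runs of this kind on the autosomes had 4 regions, and runs without a replicate 1 match had at most 3. The replicate 1 list held 56 regions there, 19 of them among its 1000 highest, and the replicate 2 list held 0. Among 4130 autosomal tiles of 20 kb, that from 10060001 to 10080000 held the most of the 1000 highest regions of replicate 1, with 10. At npr-39 the pooled signal was 48.2 and the replicate 1 signal 38.9 (rank 10), and this region belonged to the consensus. At R04B5.5 the pooled signal was 37.9 and the replicate 1 signal 27.02, at R04B5.7 they were 31.8 and 22.8, and at nhr-192, a nuclear hormone receptor gene, they were 30.96 and 25.4. All 4 were high in replicate 1 and absent from the replicate 2 list. The fifth member was R04B5.11, with a pooled rank of 1629. None of the 16 regions held a 31-base word found elsewhere in the genome. This stretch was looked at after its values were seen, and why the replicates differed there was not tested. Near ztf-11 itself, 2 members lay within 20 kb of the gene, at oct-1 (pooled signal 34.4) and lsl-1 (21.8), and near unc-119, the gene mutated in the strain, there was 1.

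**Figure D4:**
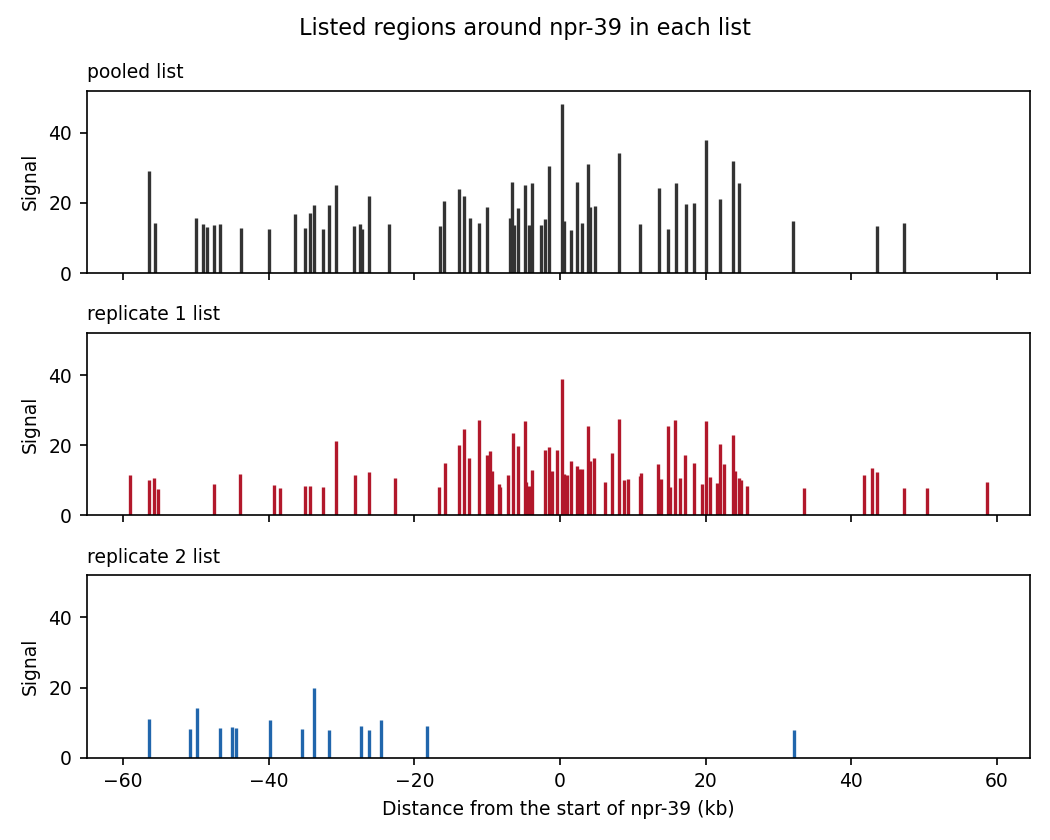
Listed regions by distance in kb from the start of npr-39, as vertical lines whose height is the signal in the pooled (top), replicate 1 (middle) and replicate 2 (bottom) list, in the authors' units. Replicate 1 has 56 regions across the 38.9 kb stretch, the highest at 38.9, and replicate 2 has 0 there.

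Genes for cytosolic ribosomal proteins, translation factors, splicing factors, RNA polymerase subunits, replication and respiration were met at members more often than genes in general, and chemoreceptor, C-type lectin and major sperm protein genes less often. Over all 17242 autosomal protein-coding genes, 6.97% were the nearest gene of a member. Of 79 cytosolic ribosomal protein genes 16 were, or 20.3% (12.04% to 30.8%), and 7 of these members ranked to 500. Of 36 translation factor genes it was 10, or 27.8% (14.2% to 45.2%), and of 43 splicing factor genes 10, or 23.3% (11.8% to 38.6%). RNA polymerase subunits gave 5 of 22, DNA replication and cell cycle genes 7 of 32, and respiratory chain genes 8 of 39, each with an interval that starts above 6.97%. The share of genes with a listed region of any rank near a start was 32.2% over all genes. It was 51.9% of cytosolic ribosomal protein genes, 52.8% of translation factor genes, 48.8% of splicing factor genes and 54.6% of RNA polymerase subunit genes. Replication and cell cycle genes gave 37.5% (12 of 32) and respiratory chain genes 41.03% (16 of 39). These shares carry no intervals, and whether the last 2 differ from 32.2% was not tested. The any-rank share was similar in some classes whose interval at members includes 6.97%. It was 58.3% of tubulin, 47.6% of pan-neuronal, 47.1% of mitochondrial ribosomal protein, 44.4% of neuronal fate factor and 42.1% of body wall muscle genes. Others of this kind were below 32.2%, as tRNA synthetases at 28.1%, proteasome subunits at 21.2% and intestine genes at 21.05%. The shares at members were below 6.97% for tRNA synthetases (2 of 32), proteasome subunits (2 of 33) and vacuolar ATPase subunits (0 of 18), with intervals up to 20.8%, 20.2% and 18.5% that include it. Mitochondrial ribosomal proteins gave 9 of 70, or 12.9% (6.05% to 23.01%), an interval that includes the share over all genes. The 34 classes were chosen with earlier results on these data known and share no test, and intervals treat genes as independent draws, which neighbours are not.

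**Figure D5:**
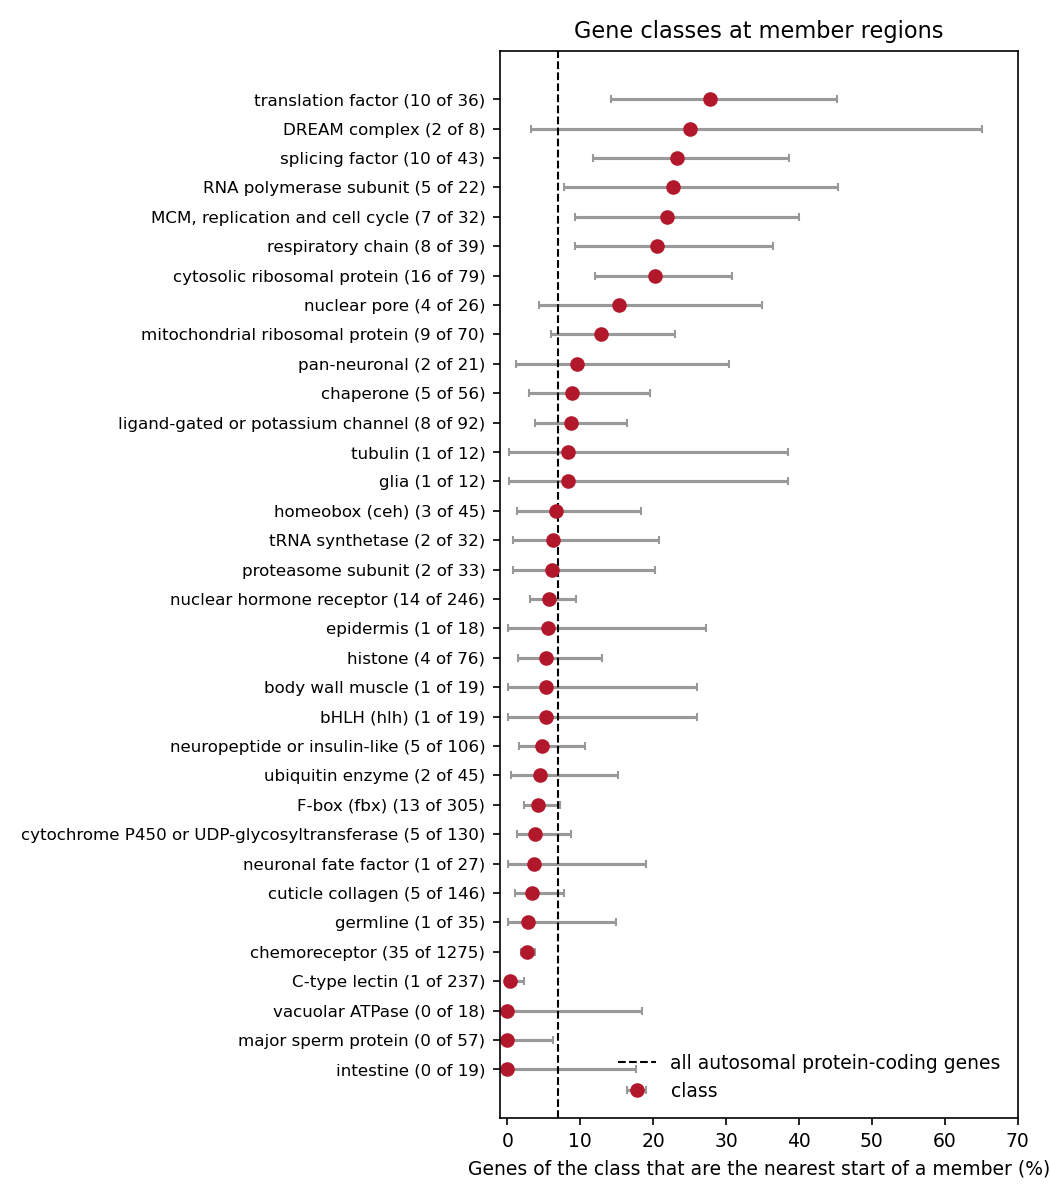
Percent of the autosomal genes of each class that were the nearest gene of a member, with exact 95% intervals and the counts beside each name; the dashed line is the 6.97% over all autosomal protein-coding genes. Translation factors stand highest at 27.8%, and intestine genes, vacuolar ATPase and major sperm protein genes at 0.

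Ribosomal protein and translation factor members ranged widely in rank. Beyond rpl-3, rps-28, a small-subunit gene, had a pooled signal of 64.3, with 21.4 in replicate 1 (rank 260) and 40.6 in replicate 2 (rank 13). The large-subunit gene rpl-24.2 had a pooled signal of 54.7, with 25.4 in replicate 1 and 20.5 in replicate 2. Of the 16 ribosomal protein members 14 matched in both replicates, 12 lay upstream, and their pooled signals ran from 21.5 to 97.96 with a median of 29.6. The translation initiation factor gene eif-3.C had a pooled signal of 68.4, with 28.6 in replicate 1 (rank 37) and 35.4 in replicate 2 (rank 21), and was high in both. The elongation factor gene eef-2 had 39.2, with 14.3 in replicate 1 (rank 3349) and 23.1 in replicate 2 (rank 89), and so was high in 1. The median over the 10 translation factor members was 25.4, close to that of all members.

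Genes of RNA and DNA synthesis followed. The member at rpac-19, a subunit shared by RNA polymerases I and III, had a pooled signal of 39.2, with 15.4 in replicate 1 and 15.8 in replicate 2. That at prp-40, a splicing factor gene, had 34.4, with 17.1 in replicate 1 and 17.5 in replicate 2, and all 11 splicing factor members lay upstream of the start. The replication clamp gene pcn-1 had 54.6, with 25.5 in replicate 1 (rank 75) and 27.7 in replicate 2 (rank 46). It was high in both and the only one of the 7 replication and cell cycle members in the consensus. At mcm-3, a subunit of the replicative helicase, the pooled signal was 35.3, with 19.8 in replicate 1 (rank 445) and 8.87 in replicate 2 (rank 16516), and the summit lay 115 bp downstream of the start. At lin-9, of the MuvB core of the DREAM complex, it was 37.6, with 19.2 in replicate 1 (rank 557) and 22.5 in replicate 2 (rank 100). The E2F gene efl-1 was the other of 8 DREAM genes with a member, at a pooled signal of 25.8. Among nuclear pore genes npp-8 stood out at 44.5, with 30.5 in replicate 1 (rank 30) and 12.7 in replicate 2 (rank 4184).

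Chaperone, histone and tubulin genes held a few high members, with 3 of 6, 2 of 4 and 1 of 2 ranked to 500. Over all members, 201 of 1258 ranked to 500. By the nearest gene, the shares of genes with a member were 8.93% (2.96% to 19.6%), 5.26% (1.45% to 12.9%) and 8.33% (0.211% to 38.5%). These intervals include the 6.97% over all genes. With every gene that had a start within 500 bp counted, chaperone genes were met at 0.954% of members, against 0.477% by the nearest gene. Histone genes then gave 0.3975% against 0.318%, and tubulin genes 0.159% either way. Over all genes the number met rose from 1201 to 1379. The shares of genes in each class were not recounted in this way. The Hsp70 gene hsp-1 had a pooled signal of 51.3, with 30.05 in replicate 1 (rank 31) and 18.9 in replicate 2 (rank 322), and 5 of 56 chaperone genes had a member. Histone genes had members at his-68 (pooled signal 64.8), his-32 (52.3), his-72 (24.4) and his-59 (22.7), which is 4 of 76 gene entries, or 5.26%. Histone genes have near-identical copies, but words of 31 bases found elsewhere in the genome made up 0% of the regions at his-32 and his-72, 1.56% at his-68 and 15.6% at his-59. The alpha-tubulin gene tba-2 had members 51 bp and 250 bp upstream that matched the same region in each replicate. The succinate dehydrogenase subunit gene mev-1, the highest of the 8 respiratory chain members, had 36.3, with 12.7 in replicate 1 and 22.4 in replicate 2. The cohesin loader gene scc-2 had 48.04, with 21.8 in replicate 1 and 23.3 in replicate 2, and sec-61.G, a subunit of the protein translocation channel, had 50.3, with 21.9 in replicate 1 and 27.6 in replicate 2.

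Chemoreceptor, C-type lectin and major sperm protein genes had intervals wholly below the 6.97% over all genes. Chemoreceptor genes gave 35 of 1275, or 2.75% (1.92% to 3.797%), and C-type lectin genes 1 of 237, or 0.422% (0.0107% to 2.33%). Major sperm protein genes gave 0 of 57, with an interval up to 6.27%. A listed region of any rank near a start was also rarer for these, at 24.6% of chemoreceptor genes, 19.8% of C-type lectin genes and 8.77% of major sperm protein genes, against 32.2% of all genes. An exception by rank was the chemoreceptor gene srh-16, with a pooled signal of 56.6, and 23.7 in replicate 1 (rank 123) and 28.2 in replicate 2 (rank 42). A second member at srh-16, 123 bp downstream, matched the same replicate 1 region. Other large families had intervals that include the share over all genes. F-box genes gave 13 of 305, or 4.26% (2.29% to 7.18%). Nuclear hormone receptor genes gave 14 of 246, or 5.69% (3.15% to 9.36%), with nhr-47 highest at 34.3, and cuticle collagen genes 5 of 146, or 3.43% (1.12% to 7.81%), with col-150 highest at 33.05.

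The lists of genes of single tissues were short, at 12 to 35 genes, and each gave few members. Pooled signals of these members were 21.5 to 24.1 except for 1 germline gene. Of 27 neuronal fate factor genes only the proneural gene ngn-1 had a member, with a pooled signal of 23.3, 9.67 in replicate 1 (rank 15961) and 14.1 in replicate 2 (rank 2372). Of 21 pan-neuronal genes there were 2, the active zone gene cla-1 (pooled signal 24.1) and the proprotein convertase gene egl-3 (21.5), the second without a replicate 2 match. Muscle, epidermis and glia lists, of 19, 18 and 12 genes, held 1 member each. These were at the integrin gene pat-3 (22.3), the apical matrix gene noah-1 (23.5) and the Prospero gene pros-1 (23.3). The germline list of 35 genes held mex-1, an early embryonic RNA-binding protein gene, at 32.8, with 16.4 in replicate 1 and 12.96 in replicate 2. Of 19 intestine genes 0 had a member, with an interval up to 17.7%. At these list sizes the shares could not be told from the 6.97% over all genes. They were 3.70% for neuronal fate factors (0.0937% to 18.97%) and 9.52% for pan-neuronal genes (1.18% to 30.4%). Muscle, epidermis, glia and germline lists gave 5.26%, 5.56%, 8.33% and 2.86%, with intervals that also include 6.97%.

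CG pairs were denser at the summits of the highest members. At least 5 CG pairs in the 101-bp window, a threshold chosen after the windows were seen, were found at 26.8% of members (24.4% to 29.3%), against 15.3% of the high regions away from starts and 18.1% of all autosomal listed regions. Members held more of the highest ranks, so the shares are also given by rank. The share was 70.8% (55.9% to 83.1%) in members ranked 1 to 88, 36.6% (28.97% to 44.8%) in ranks 89 to 500 and 22.3% (18.9% to 25.96%) in ranks 2501 to 5000. Windows of the same length were also taken at 15863 other autosomal starts, fewer than the 25190 annotated autosomal protein-coding transcript starts. At the members' median offset of 68 bp upstream they gave 20.1%. At 143 bp upstream, the offset of members ranked to 500, they gave 21.03%. The share in the lowest of these ranks was thus close to that at these other starts. Away from starts the 20 regions ranked 1 to 88 gave 45% (23.1% to 68.5%) those ranked 89 to 500 gave 16% (11.2% to 21.8%) and those ranked 2501 to 5000 gave 15.6% (13.8% to 17.5%). Away from starts the share was thus raised in the 20 highest regions and not in the next range. Median GC content was 44.6% in members ranked 1 to 88 and 32.7% over all members, against 43.07% and 29.7% in the corresponding regions away from starts. Members with at least 5 CG pairs were among the 5000 highest of both replicates in 24.3% of cases and those with none in 8.08%. Their median pooled signals were 25.7 over 337 members and 24.1 over 99. This contrast was not split by rank, and 34 of the 337 were in the consensus against 2 of the 99.

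Short words were counted on both strands of the same windows. The word CGCGC was added after the windows were seen and is made of CG pairs itself. It occurred in 33.3% of the consensus members (20.4% to 48.4%), 17.9% of members ranked to 500 (12.9% to 23.9%) and 5.96% of those ranked from 501. Away from starts it occurred in 4.545% of regions ranked to 500 (2.20% to 8.20%) and 3.04% of all the high regions. Other starts at 143 bp upstream gave 5.83%. The word CCGCCC occurred in 14.6% of consensus members (6.07% to 27.8%) and 2.70% of all members (1.88% to 3.76%), against 3.74% of other starts at the members' offset of 68 bp, 2.39% of other starts at 143 bp and 1.59% of all autosomal listed regions. Over all members it was therefore no more frequent than at these other starts.

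The remaining words are given beside both the regions away from starts and other starts at 68 bp upstream. AAGTT, the core word known for Myt1 family proteins, occurred in 34.3% of members (31.7% to 37.04%), against 38.98% of the regions away from starts and 33.5% of other starts (32.8% to 34.3%). AATTTTT was found in 28.9% of members (26.4% to 31.5%), against 37.02% of the regions away from starts and 23.5% of other starts (22.8% to 24.1%). Members thus had AAGTT about as often as the windows at other starts. They had AATTTTT more often than those windows but less often than the regions away from starts. Autosomal listed regions near starts ranked over 5000 gave 36.75% for AAGTT and 31.3% for AATTTTT, both within the intervals of members. GAGAGA was found in 6.28% of members (5.003% to 7.77%), against 4.94% of the regions away from starts and 9.06% of other starts (8.62% to 9.52%). TGATAA was found in 8.74% of members (7.24% to 10.4%), against 9.43% away from starts and 13.4% of other starts (12.8% to 13.9%). TGACGT was found in 2.07% of members (1.35% to 3.01%), against 2.66% away from starts and 3.73% of other starts (3.44% to 4.04%). CACGTG was found in 1.43% of members (0.850% to 2.25%), against 1.07% away from starts and 2.84% of other starts (2.58% to 3.11%). These 4 words were thus rarer at members than in the windows 68 bp upstream of other starts, with intervals that did not overlap. Those windows sit at 1 offset, while member summits spread over 500 bp on each side of a start. Autosomal listed regions near starts ranked over 5000 gave 5.05% for GAGAGA, 9.29% for TGATAA, 2.78% for TGACGT and 1.61% for CACGTG. Each of these values lies within the interval of members. TCTGCG was found in 3.42% of members, 2.07% of the regions away from starts and 3.27% of other starts. TTTCGCG was found in 1.83% of members, 1.42% away and 1.47% of other starts. By rank, TTTCGCG was found in 4.48% of members ranked to 500 (2.07% to 8.33%) and 1.325% of those ranked from 501 (0.726% to 2.21%). These 2 intervals overlap. Regions away from starts ranked to 500 gave 2.27% (0.742% to 5.22%), and other starts at 143 bp gave 1.595%. At 143 bp, other starts gave 8.22% for GAGAGA, 12.1% for TGATAA, 3.795% for TGACGT and 1.94% for CACGTG. The last of these lies within the interval of members. Base content differs between these groups of windows and was not matched in these counts.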

How the data were processed

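The data were ChIP-seq region lists in narrowPeak format for 2 biological replicates. Per the deposited README texts, lists of peaks and background were made from alignments and a control library as input for IDR (irreproducible discovery rate), for each replicate and for both pooled, and the consensus (named optimal) was derived from them. The aligner, peak caller, IDR threshold and control strain are not given in the sources used here. Signal per region (column 7, deposited) is the authors' own, with no stated scaling between lists. The deposited score (column 9) has no stated scale, with 79.99% of pooled values below 0, and served only as another ranking. The lists hold no read counts, so depth is unknown.

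Lists on ce11 were used with the WBcel235 sequence and Ensembl release 115 starts; ce10 lists were not used here. Positions count from 1. Regions were ranked by signal. Pooled ranks count every region of the pooled list, and replicate ranks count regions on the nuclear chromosomes. A region took the gene of its nearest protein-coding transcript start. Replicate matches were summits within 200 bp. Shares carry exact (Clopper-Pearson) 95% intervals that cover counting only. Python 3.11.15, numpy 2.4.6, pandas 2.3.3, scipy 1.17.1 and matplotlib 3.10.9 were used. The distance and match steps were tested on simulated positions.

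Members, gene classes and words were chosen with earlier results of these data known. Named genes were the 30 members of highest signal, the 3 highest per class, the 20 best by their worse replicate rank and 3 on each side of each limit; members of the npr-39 stretch, those near ztf-11 and genes named as second starts were chosen after their values were seen, as was his-59. Alternatives varied the number of regions, distance, starts, ranking, list, match and window. An item withheld from the text is not reported here.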

Additional observations from a re-analysis of the deposited data

How the results depend on the processing

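Keeping fewer regions raised the shares near starts and with replicate matches. With the 2500 highest regions there were 693 members, 33.4% of autosomal regions, and with the 1000 highest 329 members, or 39.6%, of which 73.3% lay upstream, 96.4% matched in replicate 1, 90.3% in replicate 2 and 86.6% in both. A limit of 250 bp gave 734 members, or 17.7%, with 83.4% matched in replicate 2 and 71.4% in both, and 1000 bp gave 1971, or 47.5%, with 56.9% upstream. These counts follow from the wider or narrower limits. The share was 25.2% with 1 start per gene, 28.7% ranked by column 9, and 27.7% to 31.2% with 1 replicate left out. Matching within 100 bp gave 77.7% in replicate 1, 74.4% in replicate 2 and 53.97% in both, and matching by any overlap gave 89.98%, 83.5% and 73.5%. The cause of the other shifts was not tested. The alternatives without the consensus peaks, with 1 region per group and without the npr-39 stretch were chosen after the data were seen, and each of their values moved by less than its interval. Of 263 alternative values for single classes and words, 30 moved beyond their interval, 16 of them with the 1000 highest regions. No paired analysis was possible because the samples form 1 group. With 2 replicates, no control samples in the lists and unknown depth, no binding difference could be tested.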

Other observations

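Members at further genes were high in both replicates or in 1. At icd-2, a subunit of the nascent polypeptide-associated complex, the pooled signal was 43.3, with 22.3 in replicate 1 (rank 183) and 21.1 in replicate 2 (rank 152). At ddp-1, a gene for a small mitochondrial import chaperone, it was 53.9, with 28.4 in replicate 1 (rank 38) and 25.9 in replicate 2 (rank 58). At eelo-2 it was 52.8, with 16.2 in replicate 1 (rank 1707) and 32.2 in replicate 2 (rank 25). The members at icd-2 and ddp-1 were thus high in both lists, and that at eelo-2 ranked much higher in replicate 2.

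Outside the npr-39 stretch, the highest members with a match in 1 replicate only were dbt-1 (pooled signal 39.2, replicate 2 alone), hpr-9 (37.5, replicate 1 alone) and F22B3.10 (37.5, replicate 2 alone), named after their values were seen. The members at tos-1 (35.8) and Y43D4A.6 (35.5) ranked 36 and 23 in replicate 1 and had no match in replicate 2. At C24B5.4 (23.1) and F59E12.1 (22.9) neither replicate list had a match, although the pooled list was made from both.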
